A study of Macaca mulatta with 60 samples.

Results

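Left ventricle (LV) of late gestation (LG) control fetuses was compared with LV of early gestation (EG) control fetuses of the rhesus monkey. The members were the arrays that the labels gave as LV, control and either early or late, which made 6 of 60 arrays: EG fetuses 1, 2 and 3 and LG fetuses 7, 8 and 9. The series holds LV, right ventricle (RV), both atria and a skeletal muscle from female fetuses of a project on ovarian development, measured to compare fetuses whose mothers received bisphenol A (BPA) with controls. The controls were fetuses of dams that ate fruit with the ethanol vehicle alone, once a day. Feeding began on day 50 of gestation and ended on day 100 ± 2 for EG, and for LG it began on day 100 ± 2 and ended at term. The 6 BPA exposed fetuses of LV (EG fetuses 4 to 6 and LG fetuses 10 to 12) came from dams that received 400 µg/kg body weight of BPA in the same windows. No genotype or strain was given beyond the species. EG fetuses were taken by caesarian section at the end of their window and LG fetuses were taken after vaginal birth, so age, labour and birth cannot be told apart here. Samples are numbered alike in every tissue, but the sources used here do not say that a number is the same fetus in each. One piece of LV was measured per fetus, as a mixture of cells, so fewer cells of a kind and less RNA per cell cannot be told apart either.

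The ventricle of a primate fetus grows at first by division of its muscle cells and later mainly by their enlargement, and it works at low oxygen until birth. Its muscle contracts with heavy chains of cardiac myosin, of which the beta form is the main one in the ventricle of large mammals and the alpha form, encoded by Myh6, the main one in the atria. Around birth the heart turns from glucose and lactate towards fatty acids as fuel, and thyroid hormone and glucocorticoids act on both the contractile proteins and the enzymes of this change.

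The values were log2 levels from robust multi-array averaging (RMA), 1 per transcript and array, for 26149 transcripts. Of these, 17628 passed a filter on variation over the 12 LV arrays and were tested. All LV arrays shared a slide, and the medians of the 6 control arrays lay between 6.55 and 6.63. Set against the 2 other fetuses of its group, EG fetus 2 had the lowest mean correlation across transcripts (r = 0.866) and LG fetus 9 the highest (r = 0.918). EG fetuses 1 and 3 had a higher mean correlation with the LG controls (r = 0.919 and 0.917) than with their own group (both r = 0.908), which includes fetus 2. Fetus 2 lay more than 2 log2 units above both other EG controls in 1410 tested transcripts, against 179 and 187 for fetuses 1 and 3. On every array a set of transcripts shared the lowest value, from 71 on fetus 1 to 810 on fetus 9, and such values were treated as upper limits. That lowest value was 0.63 on fetus 9 and −0.81 or lower on the other 5. No sequences or coordinates of the transcripts were at hand, and 579 of them could be described, all because the study had listed them for an effect of BPA in a heart chamber. Of these 579, 301 had been listed from LV itself, with the same control arrays. Their values are therefore given as a description, and their number is not independent evidence of a direction. The other 278 were listed from RV or an atrium, and Pdk4, Thrb and Gyg1 could be named because the study discussed them.

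A transcript was called when LG and EG differed by at least 1 on the log2 scale (a log2 fold change, LFC, of at least 1 in size) with an unadjusted p of at most 0.01 in limma, the criteria of the study. In all, 520 transcripts were called, which was 2.95% of those tested. Of these, 258 were higher in LG (1.46% of those tested) and 262 were lower (1.49%). The smallest Benjamini-Hochberg adjusted p in limma was 0.109, so 0 transcripts passed an adjusted p of 0.05, and 1865 (10.6%) had an unadjusted p of at most 0.05. The size of the calls ran from 1.03 to 7.71 among the rises and from 1.17 to 6.56 among the falls, and 38 rises and 43 falls were at least 3. The median LFC over all tested transcripts was −0.08. In 3083 transcripts, 17.5% of those tested, the 3 LG fetuses did not overlap the 3 EG fetuses (7.96% higher and 9.53% lower), and 505 of the 520 called transcripts were among them. For any such transcript the exact two-sided permutation test gives p = 0.1, the smallest value that 3 against 3 allows.

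**Figure D1:**
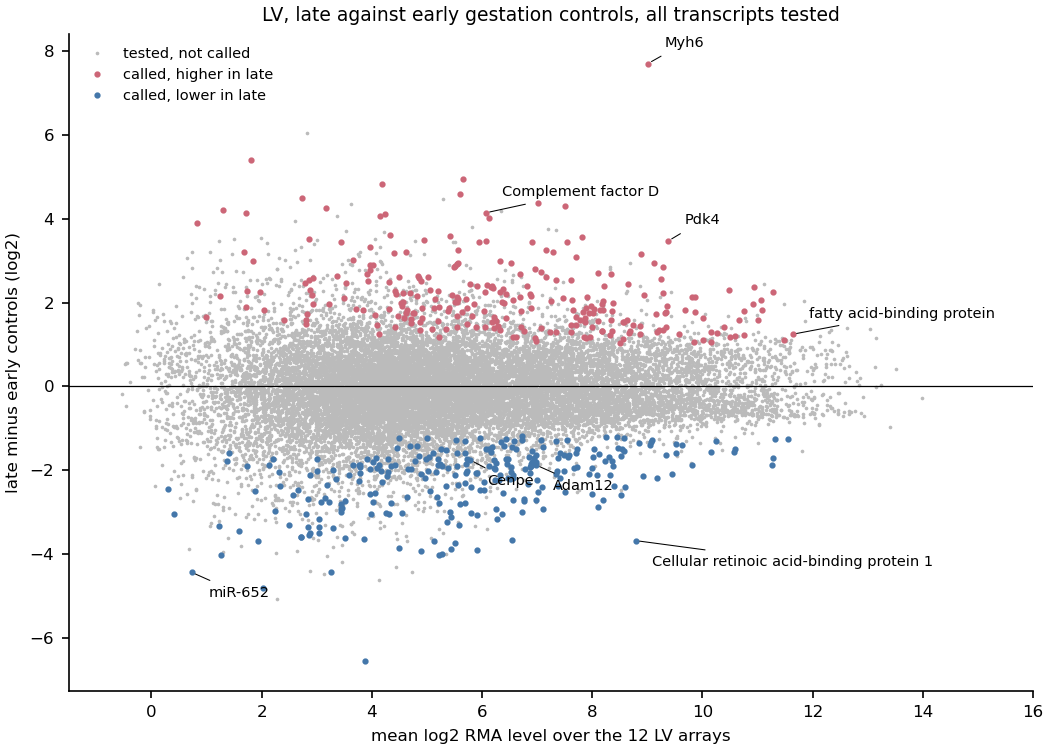
Difference between LG and EG controls (log2, vertical axis) against the mean log2 RMA level over the 12 LV arrays (horizontal axis) for the 17628 transcripts tested; red and blue points are the 258 called higher and the 262 called lower. Myh6 stands highest at 7.71, and the calls spread over the whole range of levels.

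Calls were found at every level of expression. When the transcripts were divided by mean level into 3 bands of 5876, in the lower band, 42 rose and 66 fell (1.84%), and in the middle band 89 rose and 89 fell (3.03%). In the upper band, above a mean level of 6.33, 127 rose and 107 fell (3.98%). The standard error (SE) of a difference had a median of 0.81 in the lower band and 0.47 in the upper band, so smaller differences reached the criteria among the bright transcripts. At least 1 control array lay at its lowest value in 11 of the rises and 29 of the falls, and for 7 of the falls all 3 LG fetuses did. Those 7 differences are lower bounds.

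The largest difference in LV was that of Myh6 (ENSMMUT00000020702), the alpha heavy chain of cardiac myosin. Its level was 6.73, 6.44 and 6.48 in EG fetuses 1, 2 and 3 and 14.16, 14.43 and 14.19 in LG fetuses 7, 8 and 9. The groups lay far apart, and within each of them the fetuses differed by less than 0.5. The LFC was 7.71 (SE 1.47, adjusted p = 0.196 in limma), about 209-fold on the array scale, and it met the criteria whichever fetus was left out (7.62 to 7.80). The scanner gain had been set so that a small share of the probes saturated. On the LG arrays 26 to 38 of the 26149 transcripts were brighter than Myh6, and the highest level was 15.88 to 15.94. Whether saturated probes compressed the fold was not tested. The SE is taken over all 4 LV groups and is wide for this gene because the LG BPA exposed fetuses spread from 5.56 to 13.45. With the 6 control arrays alone it was 0.40. Myh6 was listed by the study from LV LG arrays, so this difference is a description. Alpha and beta myosin heavy chains are close in sequence, and the specificity of the probes was not analysed here.

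**Figure D2:**
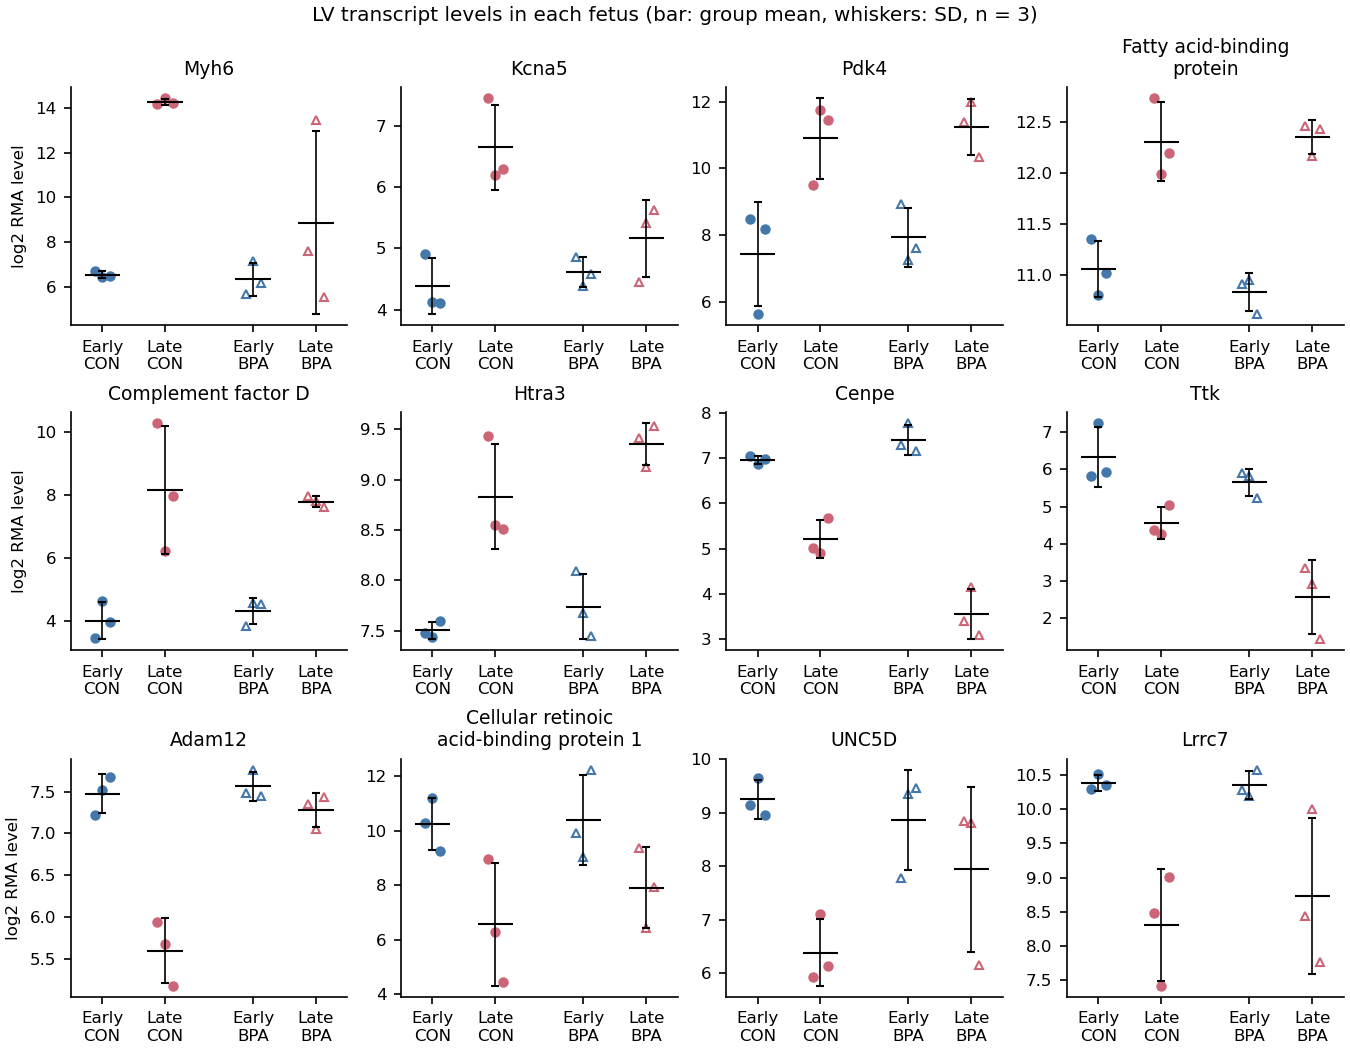
Log2 RMA level in LV (vertical axis, each panel with its own scale) of 12 named transcripts in each fetus of the EG and LG control groups (circles) and the EG and LG BPA exposed groups (open triangles), with group mean and SD (n = 3). In controls the 3 LG fetuses lie apart from the 3 EG fetuses in every panel, upward for the first 6 and downward for the last 6.

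Heart muscle was described by 8 transcripts, of which 7 were tested, 2 rose and 0 fell (1.46% and 1.49% of all transcripts tested). The list also holds Myh11, the myosin of smooth muscle, and the median LFC of the 7, 1.74, is that of Myh11. Without it the median of the other 6 was 1.30, beside −0.08 for all transcripts. In 4 of the 8 the groups did not overlap upward and in 1 downward, where over all 26149 transcripts, tested or not, the shares were 8.47% and 9.40%. The second rise was Kcna5, a potassium channel that carries the ultrarapid repolarizing current of heart muscle. Its level was 4.91, 4.12 and 4.11 in EG and 7.46, 6.20 and 6.30 in LG. Fetus 7 was the highest, and the lowest LG fetus was above the highest EG fetus. The LFC was 2.27 (SE 0.48, adjusted p = 0.204 in limma), and it met the criteria without any single fetus. Both rises were of transcripts listed from LV, and among the 4 tested members not listed from LV 0 were called, with a median of −0.25.

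The remaining muscle transcripts did not meet the criteria. Thrb, the beta thyroid hormone receptor, was 6.93, 7.85 and 7.25 in EG and 7.29, 7.95 and 7.78 in LG, with an LFC of 0.33 (SE 0.39), and the groups overlapped. Dhrs7c, an enzyme of the sarcoplasmic reticulum of striated muscle, was abundant on all 6 arrays (8.73 to 12.48). Its 3 LG fetuses nevertheless all lay above its 3 EG fetuses. It did not pass the filter on variation. Bmp10, a growth factor of the embryonic and atrial heart muscle, was lower in all 3 LG fetuses (0.46 to 1.69) than in all 3 EG fetuses (2.42 to 5.03), with an LFC of −2.40 (SE 0.86) that missed the criteria. Myh11 of smooth muscle was 7.59, 6.94 and 5.78 in EG and 10.17, 7.65 and 7.72 in LG (LFC 1.74, SE 0.90). MiR-133c, a microRNA of muscle, was −0.38, at most −0.81 and 3.61 in EG and 4.51, 2.54 and 4.44 in LG, so the groups overlapped, and its LFC of at least 3.02 (SE 1.11) missed the criteria. It had been listed from LV. Kcnn2, a potassium channel opened by calcium, overlapped too (LFC −0.84, SE 0.58). Other defining genes of ventricular muscle, such as the ventricular myosin light chain, could not be named among the transcripts, so the chamber itself was not checked by its markers.

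Of 9 transcripts of fuel metabolism in the list 7 had a row, 6 were tested, 2 rose and 0 fell, beside 1.46% and 1.49% of all transcripts, with a median of 0.29 beside −0.08. Pdk4 is the kinase that inactivates pyruvate dehydrogenase and so spares glucose when fatty acids are burnt. Its level was 8.48, 5.62 and 8.19 in EG fetuses 1, 2 and 3 and 9.52, 11.75 and 11.44 in LG fetuses 7, 8 and 9. The groups did not overlap, though fetus 7 was closer to the EG fetuses 1 and 3 than to fetuses 8 and 9. The LFC was 3.47 (SE 0.86, adjusted p = 0.238 in limma), about 11.1-fold. Without fetus 2, whose level was lowest, it was 2.57 and still met the criteria, and without fetus 8 it was 3.05 and just missed them.

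A transcript described only as fatty acid-binding protein (ENSMMUT00000015266), one of the carriers of fatty acids in the cytoplasm, rose as well. Its level was already high in EG, at 11.35, 10.81 and 11.02, and was 12.73, 11.99 and 12.20 in LG. The groups were separate, and the LFC was 1.25 (SE 0.36, adjusted p = 0.290 in limma), about 2.37-fold. This call was lost when fetus 2, 3, 7 or 9 was left out (LFC 1.03 to 1.41 over the 6 fits), when only the 6 control arrays were fitted, and at an interquartile range of at least 1. Neither Pdk4 nor this transcript was listed from LV. The other members were not called. Hk2, the hexokinase of muscle, had an LFC of −0.37 (SE 0.52), and Slc37a2, a sugar phosphate exchanger, had −0.23 (SE 0.57). Gyg1, which primes glycogen, lay between 9.76 and 10.06 on all 6 control arrays with an LFC of 0.02 (SE 0.28). Gyg1 varied too little to be tested, and 2 further transcripts of it had no row.

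Of 4 transcripts of cell division, all tested, 0 rose and 2 fell, beside 1.46% and 1.49% of all transcripts, and the median LFC was −1.49. Cenpe, the kinesin motor that lines chromosomes up at their kinetochores, was 7.03, 6.86 and 6.98 in EG and 5.02, 4.91 and 5.68 in LG. The EG fetuses lay within 0.2 of each other, and every LG fetus was more than 1 below them. The LFC was −1.75 (SE 0.41, adjusted p = 0.208 in limma), about 3.37-fold lower, and it met the criteria without any single fetus but not at an interquartile range of at least 1. Ttk, the kinase of the spindle checkpoint, was 5.82, 7.25 and 5.92 in EG and 4.38, 4.25 and 5.04 in LG. Its LFC was −1.77 (SE 0.57, adjusted p = 0.335 in limma), a call close to the threshold that was lost whichever fetus was left out. Cit, a kinase of cytokinesis, was lower in all 3 LG fetuses (7.87 to 8.99) than in all 3 EG fetuses (9.41 to 10.15), with an LFC of −1.23 (SE 0.45) that missed the criteria. Cdc25c, the phosphatase that starts mitosis, overlapped (LFC −0.80, SE 0.46), because fetus 9 was at 6.46. All 4 had been listed from LV, and of the 301 transcripts so listed 24 rose and 42 fell.

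RV was not used to list Cenpe or Ttk, but its samples may come from the same fetuses as those of LV. In RV the LFC of Cenpe was −1.97 (SE 0.33, adjusted p = 0.00993 in limma), and both criteria were met. The LFC of Ttk in RV was −1.37 (SE 0.39, adjusted p = 0.0905), and it was called too. In both ventricles the 3 LG fetuses were below the 3 EG fetuses for each of these transcripts.

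**Figure D3:**
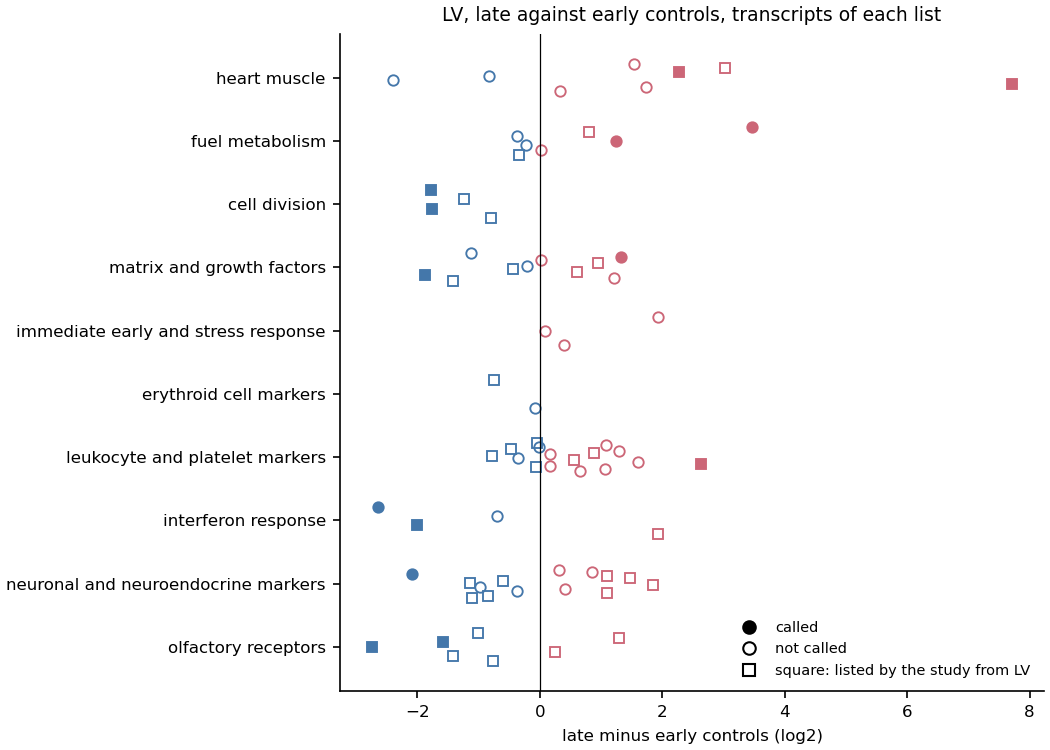
Difference between LG and EG controls in LV (log2, horizontal axis) for the transcripts of 10 lists; filled symbols were called, open symbols were not, and squares had been listed by the study from LV. The 4 transcripts of cell division all lie below 0, and most other lists spread to both sides.

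Of 10 transcripts of matrix proteins and growth factors 9 were tested, 1 rose and 1 fell, beside 1.46% and 1.49% of all transcripts, with a median of −0.20. Adam12, a membrane metalloprotease that sheds growth factors, was 7.22, 7.52 and 7.68 in EG and 5.94, 5.68 and 5.18 in LG. The groups were more than 1 apart, with an LFC of −1.88 (SE 0.36, adjusted p = 0.196 in limma), about 3.67-fold lower, and the call held without any single fetus. Adam12 had been listed from LV and RV. Htra3, a secreted serine protease that acts on matrix and on growth factor signals, was 7.48, 7.43 and 7.59 in EG and 9.44, 8.55 and 8.51 in LG. It was higher in each LG fetus, most of all in fetus 7. The LFC was 1.33 (SE 0.38, adjusted p = 0.289 in limma), and the call was lost without fetus 1, 2, 3 or 7, with only the 6 control arrays, and at an interquartile range of at least 1. Htra3 had been listed from RV.

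Over all transcripts tested, fetus 7 lay more than 2 log2 units above both other LG controls in 549, against 395 for fetus 8 and 366 for fetus 9. Among them were Ctgf, Efemp1 and Nr4a1, chosen after their values were seen. Ctgf, a growth factor of connective tissue, was 12.47 in fetus 7 against 9.30 and 9.28 in fetuses 8 and 9 and 10.25 to 11.00 in EG. Efemp1, a matrix glycoprotein, was 11.36 in fetus 7 and 7.21 in both others, and 8.34 to 8.73 in EG. Nr4a1, an immediate early transcription factor, was 10.59 in fetus 7 and 7.71 and 7.48 in the others. The LFC of Ctgf was −0.20 (SE 0.78) and that of Efemp1 0.02 (SE 0.97), so the 3 LG fetuses together did not differ from EG beyond their spread. The immediate early and stress response list had 2 tested members, too few to read against 1.46% and 1.49%, and 0 were called.

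Complement factor D (ENSMMUT00000013515) rose more than any other named transcript that had not been listed from LV. It is the serine protease that starts the amplification loop of the alternative complement pathway, and fat cells secrete much of it. Its level was 3.45, 4.62 and 3.97 in EG and 10.27, 6.22 and 7.97 in LG. Every LG fetus was above every EG fetus, but the LG fetuses ranged over 4 log2 units with fetus 7 at the top. The LFC was 4.15 (SE 0.81, adjusted p = 0.196 in limma), about 17.7-fold, and it met the criteria without any single fetus (3.09 to 5.11). No defining transcript of fat cells could be named, so the share of such cells in its rise was not tested.

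Of 15 leukocyte and platelet markers tested 1 rose and 0 fell, beside 1.46% and 1.49% of all transcripts, with a median of 0.56. Their mean level over the list ran from 4.50 to 4.73 in the EG fetuses and from 5.08 to 5.21 in the LG fetuses, so the list means did not overlap. The 8 tested markers that had not been listed from LV had 0 calls, a median of 0.87 and the same order, with means of 5.44 to 5.70 in EG and 6.06 to 6.33 in LG over the 9 with a value. The 7 listed from LV had a median of −0.04. In 3 of the 16 markers the groups did not overlap upward and in 1 downward, beside 8.47% and 9.40% of all transcripts, tested or not. In the BPA exposed fetuses 5 of the 15 rose and 1 fell, with a median of 0.97, where over all transcripts 1.65% rose and 1.94% fell with a median of 0.12. Among the 8 not listed from LV 3 rose and 0 fell there, with a median of 0.93. The 7 listed from LV had 2 rises and 1 fall, and the LV lists were made with these same BPA exposed arrays. The marker that rose in the controls was the cytokine Tnf, at 1.64, 1.46 and 1.68 in EG and 3.60, 5.45 and 3.62 in LG (LFC 2.63, SE 0.58, adjusted p = 0.205 in limma). These levels are low on the arrays, and Tnf had been listed from LV. Ctss, a lysosomal protease of phagocytes, was 6.24, 5.89 and 4.99 in EG and 7.62, 6.91 and 7.42 in LG (LFC 1.61, SE 0.56) and missed the criteria. None of the 16 markers was at its array's lowest value in a control. The part that more leukocytes might have in the rises of Tnf and of complement factor D was not tested.

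The erythroid markers Alas2 and Klf1 were both tested and neither was called. Alas2, the enzyme that starts the synthesis of heme in red cell precursors, was 8.66, 8.72 and 8.45 in EG and 8.77, 9.08 and 7.76 in LG. The groups overlapped, with an LFC of −0.07 (SE 0.62).

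Of 4 interferon response transcripts 0 rose and 2 fell, beside 1.46% and 1.49% of all transcripts, with a median of −1.36. A transcript described as MHC class I antigen (ENSMMUT00000043987), which presents peptides to T cells, was 5.14, 5.84 and 6.09 in EG and 1.19, 4.29 and 3.66 in LG. The groups did not overlap, and fetus 7 was far below the others. The LFC was −2.64 (SE 0.79, adjusted p = 0.302 in limma), and the call was lost without fetus 2, 3 or 7, with −1.71 when fetus 7 was left out, and with only the 6 control arrays. Macaques have many near-identical class I genes, so the gene behind this signal is uncertain. Ifit1-like, a transcript like the interferon-induced Ifit1, was 8.13, 7.34 and 8.82 in EG and 5.53, 6.83 and 5.89 in LG. It was lower in each LG fetus, with an LFC of −2.01 (SE 0.62, adjusted p = 0.315 in limma), and had been listed from LV. Its call was lost without fetus 1, 3, 7 or 9 (−2.39 to −1.65 over the 6 fits), when only the 6 control arrays were fitted, and at an interquartile range of at least 1. Ifi27l1, another interferon-induced gene, lay the other way at 5.53, 4.84 and 4.03 in EG and 8.49, 5.66 and 6.02 in LG (LFC 1.93, SE 0.76) and was not called.

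The falls that had not been listed from LV were led by cellular retinoic acid-binding protein 1 (ENSMMUT00000013118), which holds retinoic acid in the cytoplasm and is best known from embryonic tissues. Its level was 10.29, 11.19 and 9.27 in EG and 8.96, 6.28 and 4.47 in LG. Fetus 7 was within 0.4 of the lowest EG fetus, whereas fetus 9 was more than 4 below it. The LFC was −3.68 (SE 1.18, adjusted p = 0.335 in limma), about 12.8-fold lower. The call was lost without fetus 1, 2, 3, 8 or 9, also when only the 6 control arrays were fitted or no filter on variation was set, and the LFC ran from −4.88 to −2.63 over the 6 fits that left a fetus out.

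The netrin receptor UNC5D, a repulsive guidance receptor of neurons, was 9.15, 9.66 and 8.95 in EG and 5.92, 7.09 and 6.13 in LG. The groups were almost 2 log2 units apart, with an LFC of −2.87 (SE 0.74, adjusted p = 0.261 in limma), about 7.31-fold lower. Of the 6 fits that left a fetus out, the call was lost in the one without fetus 7, at −2.64. Both UNC5D and cellular retinoic acid-binding protein 1 had been listed from RV.

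Lrrc7, a scaffold protein of neuronal synapses also known as densin, was 10.30, 10.52 and 10.35 in EG and 8.48, 7.41 and 9.01 in LG. The EG fetuses were tightly grouped and each LG fetus was lower, with an LFC of −2.09 (SE 0.58, adjusted p = 0.283 in limma), about 4.25-fold. The call was lost without fetus 1, 2, 3 or 8 and at an interquartile range of at least 1. In the list of 14 neuronal and neuroendocrine markers that holds Lrrc7, 13 were tested, 0 rose, and Lrrc7 was the 1 that fell, beside 1.46% and 1.49% of all transcripts. The median of that list was −0.37, and its mean level was 4.80 to 4.81 in EG and 4.51 to 5.22 in LG, so the groups overlapped over the list. Tubb3, a tubulin of neurons, was 6.54 to 7.37 in EG and 7.17 to 7.80 in LG.

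Further named proteins met the criteria among those listed from LV. Among the rises were the kinase MAK (LFC 2.63), Family 13, member C1-like protein (2.89), sodium/bile acid cotransporter 4 (2.62), the homeobox protein goosecoid (2.25), synaptonemal complex central element protein 1 (1.86) and serine protease inhibitor Kazal-type 5 (1.67). Among the falls were C6orf223 (LFC −2.12), NIPA-like protein 1 (−2.09), solute carrier family 23 member 1 (−2.06), the NHL-repeat protein C16orf11 (−2.05), an unspecified olfactory receptor (−2.73) and the olfactory receptor OR5T3 (−1.58). Of these 12, MAK, Family 13, member C1-like protein, Kazal-type 5, C6orf223 and NIPA-like protein 1 met the criteria whichever fetus was left out, though Kazal-type 5 did not at an interquartile range of at least 1. The calls outside the rule for naming, given after their values were seen, were desmocollin-3 (LFC 1.59) and PMS2CL (1.27) among the rises and retinoic acid receptor responder protein 3 (−1.81), histamine H4 receptor (−1.73), copper-transporting ATPase 2 (−1.59) and prominin-2 (−1.31) among the falls. NIPA-like protein 1, a carrier of the magnesium transporter type, was 8.63, 8.56 and 8.41 in EG and 6.16, 6.13 and 7.03 in LG. The groups were more than 1 apart, with an LFC of −2.09 (SE 0.39, adjusted p = 0.196 in limma). Olfactory receptors are named for odour sensing neurons, and the 7 in the list had low levels in LV, with a mean over the list of 2.96 to 3.75 in EG and 2.30 to 2.73 in LG. Of these 7, 0 rose and 2 fell, beside 1.46% and 1.49% of all transcripts, and all 7 had been listed from LV. Of the 301 transcripts so listed, 24 rose and 42 fell.

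The named proteins as a class were called in 14 rises and 18 falls among 196 tested, beside 1.46% and 1.49% of all transcripts, with a median of −0.15. Without those listed from LV there were 3 rises and 4 falls among 54, with a median of 0.0012. Pdk4, which the study measured but did not list, is a further rise outside this class.

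Small RNAs were called almost wholly among those listed from LV, and over all transcripts 1.46% rose and 1.49% fell. Of all 301 transcripts listed from LV, with the same control arrays, 24 rose and 42 fell. The shares over all transcripts are therefore no fair background for the listed ones. MicroRNAs had 0 rises and 2 falls among 52 tested, and the 32 not listed from LV had 0 calls. Y RNAs had 0 rises and 5 falls among 41, and spliceosomal RNAs had 2 rises and 7 falls among 86. Small nucleolar RNAs had 1 rise and 2 falls among 40, signal recognition particle RNAs 2 and 3 among 25, ribosomal RNAs 2 and 2 among 22, and 7SK RNAs 2 and 1 among 15. Of all these calls, a single one, a U6 spliceosomal RNA that rose by 2.95, was not listed from LV. Apart from the microRNAs, these RNAs come from families of many near-identical copies, so a signal cannot be given to 1 gene.

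Both microRNAs that fell were at the lowest value of their arrays in all 3 LG fetuses. MiR-224 was 2.58, 2.39 and 2.72 in EG and at most −0.93, −0.90 and 0.63 in LG. The difference was at least 2.96, and it no longer met the criteria when every value below 0.63 was raised to that level (LFC −1.93). MiR-652 was 2.47, 6.12 and 3.52 in EG with the same upper limits in LG, a difference of at least 4.44, and with raised values it was −3.37 and still called. MiR-205 was 2.29, 1.18 and 3.31 in EG and 1.40, 0.54 and at most 0.63 in LG. Its difference of at least 1.41 in size (LFC −1.41, SE 0.58) was not called. All 3 microRNAs had been listed from LV. Among the small nucleolar RNAs, the SNORD113/SNORD114 family rose by 2.18, and the SNORD96 and SNORA3/SNORA45 families fell by 3.23 and 2.77. Each of these 3 calls was lost in 5 of the 6 fits that left a fetus out, and also with only the 6 control arrays. Over the 6 fits the LFCs ran from 1.31 to 2.84, from −4.35 to −2.03 and from −3.74 to −1.96.

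Over all transcripts, whether described or not, the largest rises whose groups did not overlap were Myh6 and the undescribed ENSMMUT00000036547. The latter was at the lowest value of all 3 EG arrays and at 3.71, 5.32 and 4.27 in LG, a difference of at least 5.40. The falls with the largest fitted differences were a U6 spliceosomal RNA (ENSMMUT00000037441), at 5.49, 9.33 and 6.39 in EG and at most −0.93, at most −0.90 and 3.37 in LG, a difference of at least 6.56 (SE 1.24), and the undescribed ENSMMUT00000036220. The latter was 1.95, 8.21 and 4.53 in EG and 0.50, at most −0.90 and at most 0.63 in LG, a difference of at least 4.82 (SE 1.23). In both falls, 2 of the 3 LG fetuses were at the lowest value of their arrays, and EG fetus 2 was the highest.

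The same contrast was then taken in the 6 BPA exposed fetuses, which share no array with the controls. There, 633 transcripts were called (3.59%), 291 higher in LG (1.65%) and 342 lower (1.94%), and 58 (0.329%) had an adjusted p of at most 0.05. Leaving out a fetus moved the counts to between 378 (without fetus 6) and 896 (without fetus 11), with 155 to 393 higher and 191 to 503 lower. Of the 258 rises of the controls, 227 (88.0%) were also higher in LG in the BPA exposed fetuses, against 55.0% of all transcripts tested. Of these 258, 67 (26.0%) were called higher there too, and 1 was called lower. Of the 262 falls, 203 (77.5%) were lower in the BPA exposed fetuses, against 45.0% of all transcripts. Of these 262, 89 (34.0%) were called lower and 5 were called higher. Both contrasts came from the same fit of the 12 LV arrays, with a shared estimate of spread. The calls in the 2 sets of fetuses are therefore not independent. The size was smaller in the second set of fetuses. The median LFC of the rises was 1.96 in the controls that chose them and 0.99 in the BPA exposed fetuses, and that of the falls was −2.03 and −1.02.

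**Figure D4:**
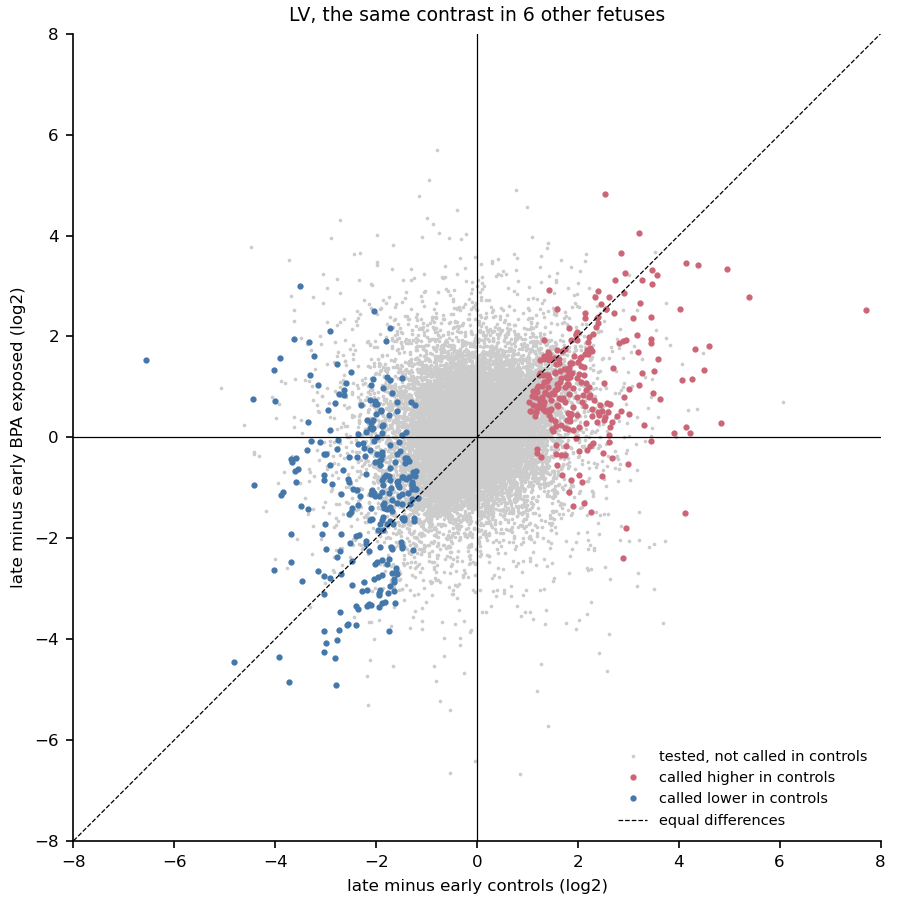
Difference between LG and EG in BPA exposed fetuses (log2, vertical axis) against the same difference in controls (horizontal axis) for 17628 transcripts in LV; red and blue points were called higher (258) or lower (262) in controls. Most red points lie above 0 and most blue points below 0 on the vertical axis, and the bulk lies closer to 0 than the dashed line of equal differences.

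Several of the named transcripts met the criteria in both sets of fetuses. Pdk4 was 8.94, 7.24 and 7.61 in EG and 11.40, 12.01 and 10.34 in LG of the BPA exposed fetuses, an LFC of 3.32 (SE 0.86) beside 3.47 in controls. Complement factor D was 3.85, 4.58 and 4.52 in EG and 7.95, 7.79 and 7.60 in LG there, an LFC of 3.46 (SE 0.81) beside 4.15. In that set its LG values were within 0.4 of each other, unlike those of the controls.

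The fatty acid-binding protein (LFC 1.52) and Htra3 (1.62) were called higher in the BPA exposed fetuses as well. Cenpe had an LFC of −3.85 and Ttk of −3.08 there, both called, and Cdc25c had −2.54 and was called, so 3 of the 4 transcripts of cell division fell, beside 1.94% of all transcripts. These 4 had been listed from LV arrays of both arms, and of the 301 transcripts so listed 28 were called lower in the BPA exposed fetuses.

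Others met the criteria in controls only, which does not show that the arms differ. Cellular retinoic acid-binding protein 1 had an LFC of −2.48 in the BPA exposed fetuses, UNC5D of −0.93 and Lrrc7 of −1.62, and none of these was called there. For Myh6 the 3 LG BPA exposed fetuses were at 7.62, 13.45 and 5.56, so that 1 of them was near the LG controls and the others near the EG controls at 6.44 to 6.73. The LFC there was 2.53 (SE 1.47). Adam12 had an LFC of −0.29 in the BPA exposed fetuses, and Thrb, which was not called in controls, had 1.52 and was called.

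The difference between the arms was tested across all transcripts. It met the criteria in 207 (1.17%), of which 62 (0.352%) were larger in controls and 145 (0.823%) smaller. The 62 became 110 without fetus 2 and 100 with no filter on variation. Of all those tested, 0 had an adjusted p of at most 0.05 in limma, while 998 (5.66%) had an unadjusted p of at most 0.05. Since LV lists were made from the same arrays, the test was read only for named transcripts that were not listed from LV. Among those 8, MHC class I antigen met the criteria: it was 5.78, 3.77 and 3.78 in EG and 5.61, 5.63 and 4.90 in LG of the BPA exposed fetuses, an LFC of 0.94 beside −2.64 in controls. The difference of −3.57 (SE 1.11, adjusted p = 0.783 in limma) did not meet the criteria without fetus 2, 3 or 7.

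The 6 control samples of RV give the contrast in a second chamber, prepared and labelled in the same way. The RV arrays were on a slide of their own, so chamber and slide cannot be told apart when LV and RV are compared. In RV, 804 of 12031 transcripts tested were called (6.68%), and 238 (1.98%) had an adjusted p of at most 0.05. The RV values spanned a narrower range. The lowest 5% of values ended at 1.46 to 1.95 on the LV control arrays and at 3.99 to 4.03 on the RV control arrays, and the median SE was 0.62 in LV and 0.44 in RV. The part of this narrower range in any difference between LV and RV was not tested.

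Of the 258 LV rises 204 were tested in RV, where 190 were higher in LG, beside 53.8% of all RV transcripts, and 61 were called higher, beside 3.15%. Of the 262 LV falls 189 were tested, of which 160 were lower, beside 46.2%, and 100 were called lower, beside 3.53%. The 2 chambers may come from the same fetuses, so RV cannot be taken as a repeat in other animals.

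**Figure D5:**
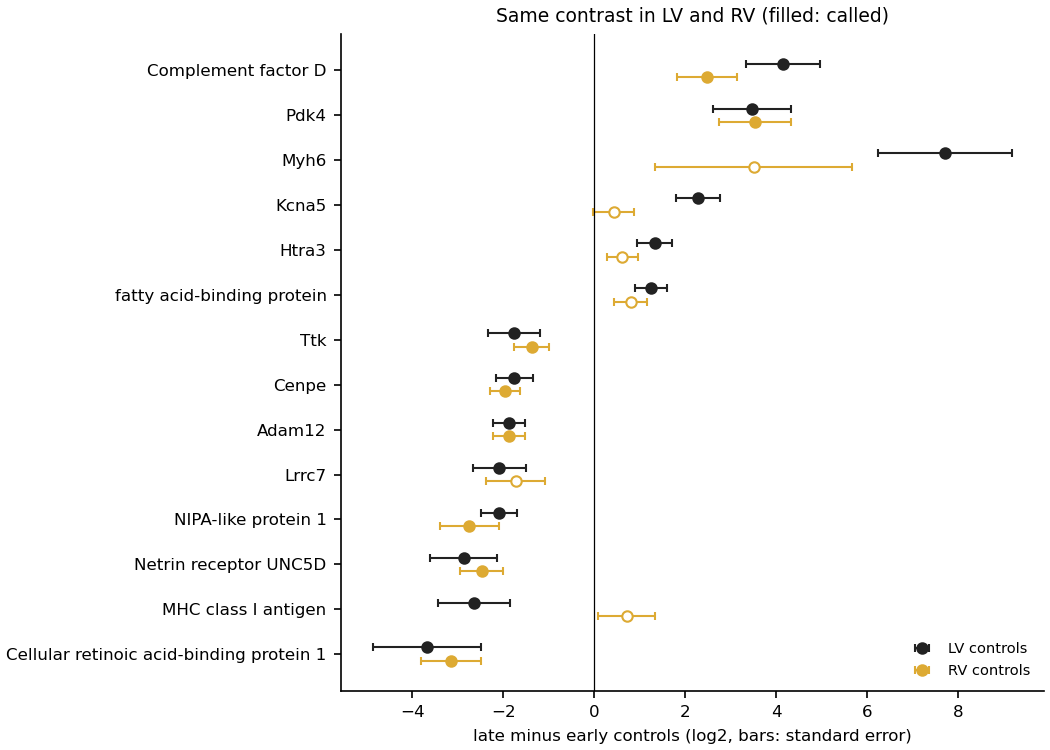
Difference between LG and EG controls (log2, horizontal axis, bars show the SE) for 14 named transcripts in LV (black) and in RV (yellow); filled circles were called. Pdk4 and Adam12 lie at nearly the same place in both chambers, Myh6 is at 7.71 in LV and 3.50 in RV, and MHC class I antigen lies on opposite sides of 0.

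Pdk4 had an LFC of 3.53 in RV (SE 0.79, adjusted p = 0.0356 in limma), called beside 3.47 in LV. Complement factor D had 2.48 in RV (SE 0.67) and was called, with the highest level in RV sample 7 (9.38, against 6.04 and 6.19 in samples 8 and 9). Cellular retinoic acid-binding protein 1 had −3.15 in RV and UNC5D −2.47, both called, though both had been listed from RV. Adam12 had −1.88 in LV and −1.87 in RV, and NIPA-like protein 1 had −2.09 in LV and −2.75 in RV, where it was called.

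Lrrc7 (LFC −1.73), the fatty acid-binding protein (0.80) and Htra3 (0.62) lay the same way in RV and were not called. Myh6 in RV was 5.51, 6.77 and 11.91 in EG and 6.47, 14.23 and 14.00 in LG, an LFC of 3.50 (SE 2.16) that was not called. The samples numbered 3 and 7 lay at opposite levels in the 2 chambers: sample 3 was at 6.48 in LV and 11.91 in RV, and sample 7 at 14.16 in LV and 6.47 in RV.

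The difference between LV and RV met the criteria in 427 of 20438 transcripts (2.09%), 84 with a larger LFC in LV (0.411%) and 343 with a smaller one (1.68%). Of these transcripts 0 passed an adjusted p of 0.05 in limma, and 1619 (7.92%) had an unadjusted p of at most 0.05. Without the samples numbered 7 the count fell to 174 and without those numbered 9 it was 641. Among the 8 named transcripts not listed from LV, MHC class I antigen met the criteria, with LFCs of −2.64 in LV and 0.71 in RV. The difference of −3.35 (SE 1.06, adjusted p = 0.456 in limma) no longer met the criteria without the samples numbered 1, 2 or 7. It was also lost when the sample number was fitted as a block, though no source ties a number to a fetus. For Pdk4 the difference was −0.06 with an SE of 1.26, which leaves room for a difference of more than 1 either way.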

How the data were processed

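Transcript levels were measured on custom NimbleGen arrays designed from the Ensembl annotation of the rhesus genome build Mmul_1. The deposited values are log2 levels that the authors made by RMA (background correction, quantile normalization and summary by median polish), separately for each tissue, so levels are compared within a tissue and only differences between tissues. Depth does not apply to arrays, and their number limits the precision. The arrays do not say how far each background lay below its values.

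The authors' test was followed: a transcript entered the test if its interquartile range over the 12 LV arrays reached 0.5, and 4 group means were fitted by the functions lmFit, contrasts.fit and eBayes of limma (version 3.58.1, under R 4.3.3). A call needed an unadjusted p no larger than 0.01 and an LFC of 1 or more in size, with Benjamini-Hochberg adjusted p beside them. LV and RV were fitted together on 24 arrays. Values within 0.001 of an array's lowest value were upper limits. Array weights used statmod 1.5.0, figures were drawn with matplotlib 3.10.9, and tables were made with numpy 2.4.6 and pandas 2.3.3 under Python 3.11.15. The fits were tested on simulated data.

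Names came from the study's published lists, matched by transcript identifier. The transcripts and lists were chosen with earlier results of these data known. The named transcripts were the genes the study discussed, the called and non-overlapping named transcripts with the largest changes (up to 10 each way, apart for those listed from LV), called members of the lists, and the 2 largest rises and falls overall. LV and RV samples share numbers and were not taken as pairs. Alternatives were other filters, centring, a further quantile normalization, array weights, another prior variance, raised lowest values, only the 6 control arrays, the sample number as a block for LV and RV, and each fetus left out. The atria and the skeletal muscle were not used here.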

Additional observations from a re-analysis of the deposited data

Results flagged for a closer look

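MHC class I antigen (ENSMMUT00000043987) is given again because the difference between groups in its late against early LFC met the criteria in 2 tests, between arms and between chambers, each of which lost the call in some settings. The difference in controls minus that in BPA exposed fetuses was −3.57 in LV, and the difference in LV minus that in RV was −3.35. The latter no longer met the criteria when the sample number was fitted as a block. LG fetus 7 was the lowest of the LV controls, at 1.19. Without the samples numbered 7 the 2 values were −2.65 and −1.77, neither of which met the criteria. Neither had an adjusted p under 0.05 in limma (0.783 and 0.456). Other named transcripts whose differences were not alike between arms or chambers had been listed from the same LV arrays, so the test over all transcripts was not read for them.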

How the results depend on the processing

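The LV late against early count of 520 calls was 380 to 498 when a fetus was left out, with 195 to 273 higher and 185 to 285 lower, and 271 to 321 of the 520 were called in each of those fits. It was 219 (103 higher, 116 lower) with an interquartile range of at least 1, where 426 of the 520 were still tested. It was 286 (126 and 160) when only the 6 control arrays were fitted and 0 (0 and 0) at an adjusted p of at most 0.05. In the other settings it was 520 to 743. None of the 520 changed sign in a setting where it was tested, which left out those below the limit at an interquartile range of at least 1 and kept 402 with a mean at or above the 25th percentile. The share of rises was 49.6%, with 57.0% after median centring and 42.8% without fetus 9. Of the 32 named transcripts that were called, 13 were called whichever fetus was left out, 19 in the fit of the 6 control arrays and 13 at an interquartile range of at least 1.

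In the BPA exposed fetuses the count ran from 378 to 896 with a fetus left out (155 to 393 higher, 191 to 503 lower). For the difference between controls and BPA exposed fetuses the count ran from 178 to 232, with 66 to 110 higher (110 without fetus 2) and 102 to 164 lower, and 100 were higher with no filter on variation. For LV minus RV it ran from 174 without fetus 7 to 641 without fetus 9, with 64 to 144 higher and 93 to 546 lower, and 523 were lower with no filter. LV and RV samples share numbers, which no source used here ties to a fetus. Deviations of same-numbered samples from their group means correlated at −0.02 to 0.33 over 9221 transcripts, over 0.1 in 7 of 12, and 10 of 12 LV samples correlated best with their own number within the group, a hint from the data alone. With the number as a replicate block, 310 were called, 82 higher and 228 lower, and MHC class I antigen (−3.35, SE 1.17) no longer met the criteria. Where a setting ended a call of a named transcript, the cause was not tested. LG fetus 9 had the highest lowest value (0.63), which limits what the faintest transcripts show.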
